A study of Mus musculus with 4 samples.

Results

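The genes described are 38 enzymes of glycolysis, of lactate and pyruvate conversion, of the citrate cycle and of the malate-aspartate shuttle. They were taken by their gene names from arrays of RNA brought down from mouse brain with CPEB3 IgG or control IgG. The name of 37 of the 38 was found among the 34821 gene names on the array, and 37 of the 27687 gene entries tested were therefore members. The name Pkm2 was not among them. The array lists that gene, pyruvate kinase, as Pkm, and its values are given beside the members without being counted. The members carried 58 probes on 67 spots, all 58 of which were well above background on all 4 arrays, so that no member was lost to the filter on dim probes.

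Glycolysis splits glucose into pyruvate in the cytosol, first spending ATP in an investment phase and then regaining it in a payoff phase. Pyruvate is either turned into lactate or carried into mitochondria, where pyruvate dehydrogenase makes the acetyl-CoA that the citrate cycle burns. Neurons and glia depend on this route for their ATP, and the malate-aspartate shuttle carries the reducing power of glycolysis into mitochondria. CPEB3 is an RNA-binding protein of neurons that binds uridine-rich elements in mRNAs and regulates their translation.

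The 4 arrays hold RNA from corticohippocampal lysate of male C57BL/6 mice aged 8 weeks, a common inbred strain. Lysate was kept for 3 h with beads carrying CPEB3 IgG (2 arrays) or control IgG (2 arrays), with no genetic change or treatment of the mice named in the labels. No array of the lysate itself was analysed here, so a lower value means less signal than with control IgG and does not give the share of an mRNA that CPEB3 held. The labels do not say whether replicates were separate animals or lysates, so the p-values reflect the spread among these 4 samples alone, and that spread may be purely technical. Whether the antibodies shared a lysate of mixed cells is not known here. If they did not, fewer cells of a type, less RNA per cell and less RNA retained on the beads cannot be told apart.

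Between 68.0% and 73.4% of probes were well above background on each array, and 0 spots were saturated. The CPEB3 IgG arrays had a 75th percentile of 507 and 353 signal units, and the control IgG arrays one of 443 and 425. Replicate arrays correlated at 0.988 (CPEB3 IgG) and 0.979 (control IgG), and arrays of different antibodies at 0.925 to 0.938, over all probes kept. The control IgG arrays were on other positions of the slide than the CPEB3 IgG arrays, so position and antibody cannot be told apart. The excitatory neuron markers Neurod6 and Camk2a were well above background on all 4 arrays, while Gabra6, a cerebellar marker, and Alb, a liver marker, were so on none.

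Probes of the array are 60 nt long, and several members had more than 1 probe on the same transcript. The sequences below belong to 4 members whose probes differed in call or in size, chosen after their values were seen. All are read from the deposited files, 5′ to 3′ in the sense of the mRNA, with mm9 coordinates as the files give them. Capitals mark AATAAA, the polyadenylation signal, in a stretch of 30 nt of the probe nearer the 3′ end. No mm9 annotation was used here, so exon and UTR borders are not stated. The Pfkp probe at position 2138 of its transcript (chr13:6581718-6583872, minus strand, a span longer than the probe) is followed by 30 nt of the probe at 3922 (probe at chr13:6579124-6579183, minus strand).
Pfkp 2138: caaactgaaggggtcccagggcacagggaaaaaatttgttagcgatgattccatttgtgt
Pfkp 3922: tttttgccagtcAATAAAcacctttggttg
The Ldha probe at 351 (chr7:54103010-54103069, plus strand) is followed by 30 nt of the probe at 1755 (probe at chr7:54110937-54110996, plus strand).
Ldha 351: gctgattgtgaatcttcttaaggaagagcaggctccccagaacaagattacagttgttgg
Ldha 1755: agtgtcatgccaAATAAAaccttgaacagt
The Tpi1 probe at 634 (chr6:124761923-124761982, minus strand) and the Hk1 probe at 2983 (chr10:61732717-61732776, minus strand) are the more 5′ probes of their transcripts.
Tpi1 634: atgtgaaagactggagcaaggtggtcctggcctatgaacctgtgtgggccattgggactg
Hk1 2983: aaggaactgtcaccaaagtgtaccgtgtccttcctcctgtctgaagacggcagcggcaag

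Most of these enzyme mRNAs were lower with CPEB3 IgG than with control IgG. Of the 37 members, 28 were called lower (75.7%), 2 were called higher (5.41%) and 7 were not called, by limma at a Benjamini-Hochberg adjusted p of 0.05 over all entries. Over all 27687 entries, 20.2% were called lower and 19.2% higher. The median log2 difference, CPEB3 IgG minus control IgG, was -1.27 over the members and -0.14 over all entries. Of the 28, 25 were lower by at least 2-fold and 8 by at least 4-fold. In 32 members both CPEB3 IgG arrays lay below both control IgG arrays and in 4 they lay above, against 41.3% and 31.6% of all entries. Groups that do not overlap are thus common on these arrays, and this alone sets no gene below apart. With 2 arrays a group an exact permutation test of a single gene cannot go below a two-sided p of 0.333, so calls rest on the spread pooled over all entries.

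The 28 calls depended on the scaling of the arrays. Scaled by the spike-in probes, control RNAs added from outside the sample, whose mean log2 signal was 13.08 and 13.44 (CPEB3 IgG) against 14.00 and 14.02 (control IgG), 6 members were called lower (Aldoa, Aldoc, Pgk1, Ldhb, Idh3b and Suclg1) and the same 2 higher. With that scaling 2.50% of all entries were called lower. Of all calls, 48.7% were higher with the 75th percentile, 68.4% with median scaling and 88.0% with spike-in scaling. Spike-in scaling moved the median of all entries up by 0.72, to 0.58, and the members' median to -0.55. Such a scaling adds 1 constant to each array, so the gap of 1.13 between the members' median and that of all entries is the same under both by construction and is no further evidence. The labels give 0.2 µg of RNA for each array, and neither spike-in nor 75th percentile scaling gives the amount of RNA that each antibody brought down. All differences below are relative to the 75th percentile of the array.

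**Figure D1:**
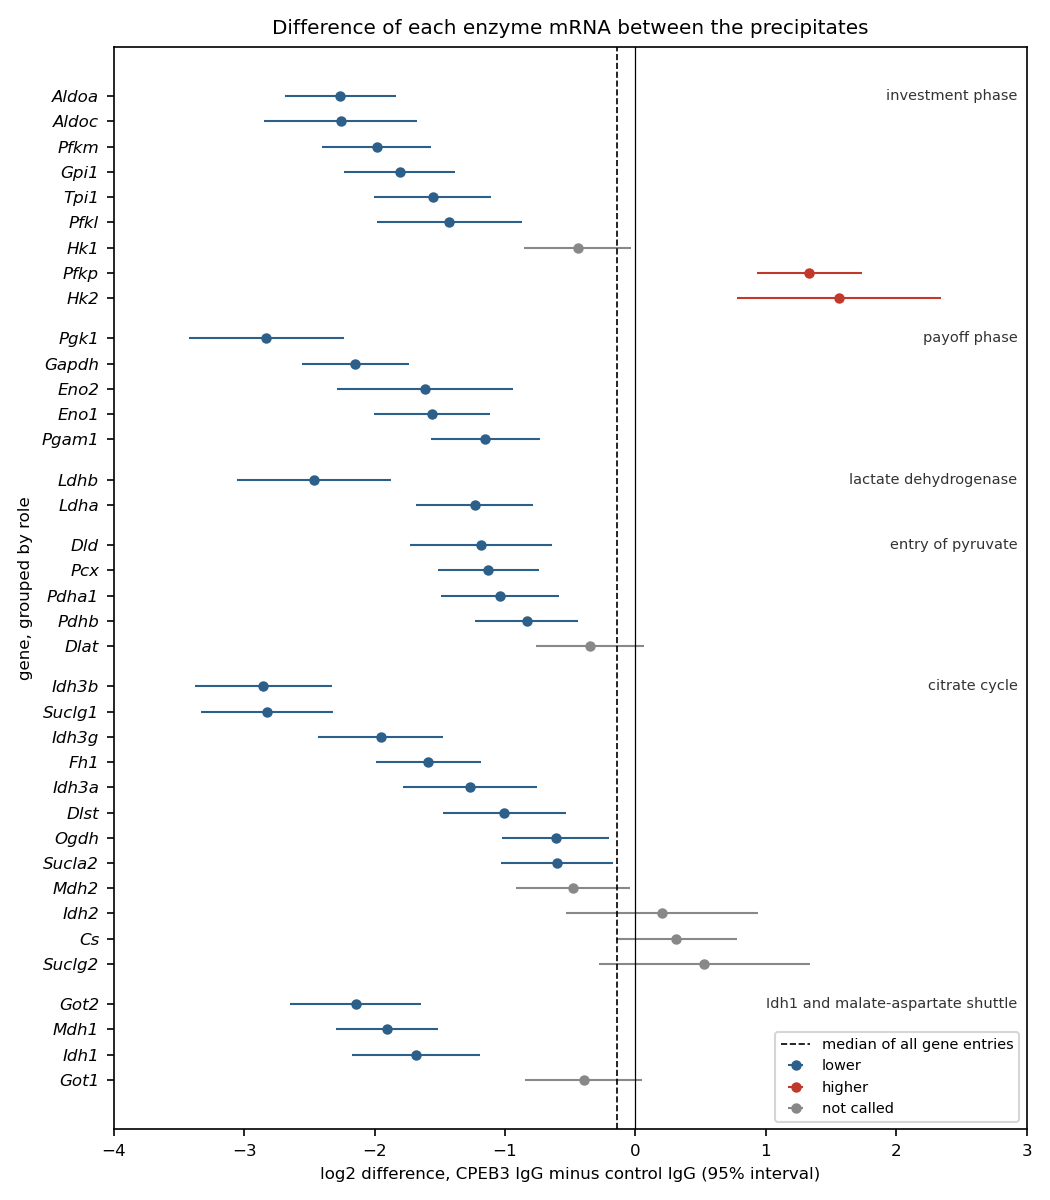
Each point is the log2 difference of 1 enzyme mRNA (CPEB3 IgG minus control IgG, x axis) with its 95% interval from limma, 2 arrays a group; genes are grouped by role on the y axis and coloured by call. In blue are the 28 members called lower, in red the 2 called higher (Hk2 and Pfkp), in grey the 7 not called, and the dashed line is the median of all entries at -0.14.

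Signals of the members lay in the upper range of the array, with a median control IgG level of 5.46 (log2 relative to the 75th percentile) against -0.80 over all entries. Levels of different probes do not compare the amounts of different mRNAs, and the split by level that follows was chosen after the values were seen. Among the 2568 entries with a mean level of 4 or more over the 4 arrays, 29.8% were called lower and 29.6% higher, with a median difference of -0.18. Of the 20 members in that range 16 were called lower and 0 higher, with a median of -1.59. Of the 17 members below it, 12 were called lower and 2 higher, with a median of -1.13.

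**Figure D2:**
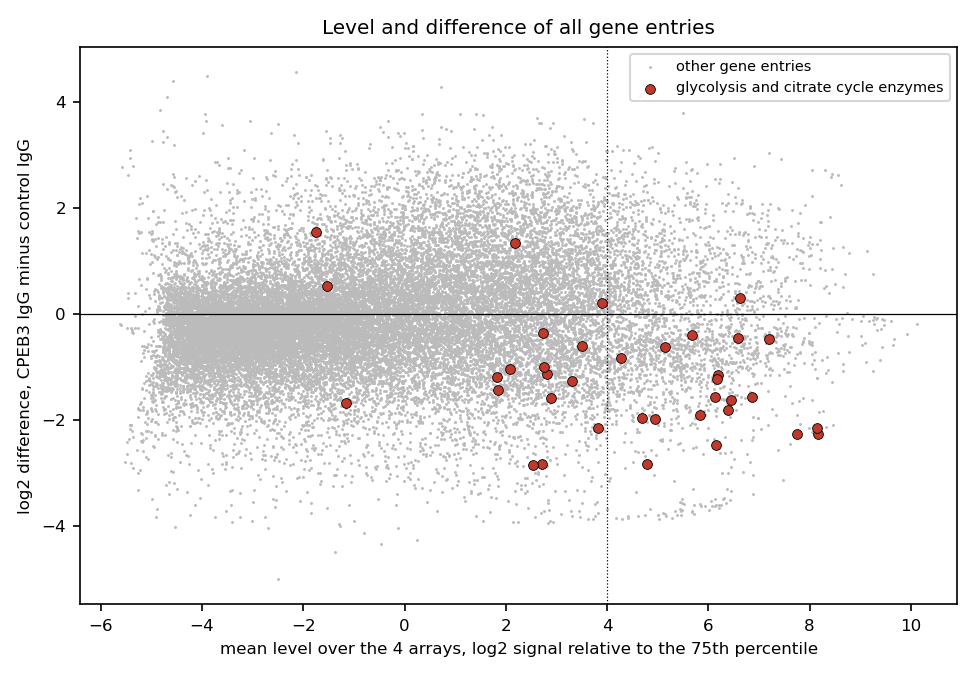
Mean level over the 4 arrays (x axis, log2 signal relative to the 75th percentile) against the log2 difference, CPEB3 IgG minus control IgG (y axis), for 27687 gene entries, with the 37 enzymes in red and a dotted line at a level of 4. Right of that line 19 of the 20 enzymes have a difference below 0, and the grey entries lie on both sides of 0.

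The investment phase held 9 members, of which 6 were called lower and 2 higher. Aldoa and Aldoc, the aldolases of muscle and brain type, which cleave fructose bisphosphate, were the members of this phase with the most negative differences. The level of Aldoa was 7.11 and 6.95 (CPEB3 IgG) against 9.24 and 9.34 (control IgG), a log2 difference of -2.26 ± 0.16 (SE, n = 2 and 2; limma adjusted p = 0.00386). Aldoc measured 6.82 and 6.41 (CPEB3 IgG) against 8.99 and 8.76 (control IgG), which is 4.79-fold lower with CPEB3 IgG (95% interval 3.19 to 7.18). For both aldolases the replicates of each antibody lay close together and the groups did not overlap. Gpi1, glucose-6-phosphate isomerase, was at 5.58 and 5.40 (CPEB3 IgG) against 7.28 and 7.31 (control IgG), a difference of -1.81 ± 0.16, and its 3 overlapping probes differed by -1.84 to -1.76. Tpi1, triosephosphate isomerase, measured 5.44 and 5.27 (CPEB3 IgG) against 6.999 and 6.82 (control IgG), a difference of -1.56 ± 0.17.

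The 3 subunits of phosphofructokinase, which commits sugar to glycolysis, did not share a call. Pfkm, the muscle type subunit, was at 4.03 and 3.88 (CPEB3 IgG) against 5.90 and 5.98 (control IgG), 3.95-fold lower with CPEB3 IgG. Its probe was printed on 10 spots of each array with an SD between spots of 0.0229 to 0.0776. The spots of the CPEB3 IgG arrays (3.86 to 4.13) and of the control IgG arrays (5.81 to 6.17) did not overlap. Spots of an array read the same sample, so they add no replicate and their spread is not that between samples. Pfkl, the liver type, differed by -1.43 ± 0.21 and was no longer called without CPEB3 IgG replicate 1. Pfkp, the platelet type, was called higher through its brightest probe, at 2.88 and 2.804 (CPEB3 IgG) against 1.54 and 1.47 (control IgG), a difference of 1.33 ± 0.15 (limma adjusted p = 0.00591). Its other probe went the other way, as described below, and over the mean of both probes Pfkp was at -0.51 and not called.

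Hexokinases, which trap glucose in the cell as its phosphate, also differed in direction. Hk2 was called higher, at -0.67 and -1.25 (CPEB3 IgG) against -2.28 and -2.76 (control IgG), 2.95-fold (95% interval 1.71 to 5.07; limma adjusted p = 0.0186). Its replicates spread more than those of the aldolases, and without CPEB3 IgG replicate 1 the difference was 1.27 and not called. Hk1, the main hexokinase of brain, was at 6.43 and 6.30 (CPEB3 IgG) against 6.84 and 6.77 (control IgG) through its brightest probe, a difference of -0.44 ± 0.15 that missed the threshold (limma adjusted p = 0.0845).

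All 5 measured members of the payoff phase were called lower. Pgk1, phosphoglycerate kinase, which makes the first ATP of this phase, was at 3.59 and 3.16 (CPEB3 IgG) against 6.07 and 6.33 (control IgG), 7.11-fold lower with CPEB3 IgG (95% interval 4.70 to 10.7; limma adjusted p = 0.00390). Gapdh, glyceraldehyde-3-phosphate dehydrogenase, often used as a reference gene, was at 7.06 and 7.10 (CPEB3 IgG) against 9.16 and 9.29 (control IgG), a difference of -2.15 ± 0.15. Both genes fell by more than 4-fold and their groups did not overlap. Eno1 and Eno2, the enolases of general and neuronal type, had differences close to each other, at -1.56 ± 0.16 and -1.61 ± 0.25. Pgam1, phosphoglycerate mutase, had the smallest difference of the phase at -1.15 ± 0.15. Eno2 was no longer called without CPEB3 IgG replicate 1, and Pgam1 without CPEB3 IgG replicate 2. Pkm, pyruvate kinase, which closes the phase and was not counted as a member, had 1 probe at 4.45 and 4.44 (CPEB3 IgG) against 6.87 and 7.05 (control IgG), a difference of -2.52 ± 0.16 (limma adjusted p = 0.00386).

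The brightest probes of Gapdh, Pgk1 and Hk1 and the only probe of Eno1 are placed by the files on another chromosome than the gene, as is a second Gapdh probe. Gapdh, Pgk1 and Eno1 are known to have pseudogene copies, and a probe cannot tell a near-identical copy from the gene, so the values of these probes are uncertain. With the 5 probes left out, an alternative chosen after the data were seen, 27 of 36 members were called lower and 2 higher. The 5 Gapdh probes placed on the chromosome of the gene were all called lower, by -3.61 to -1.86.

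Both lactate dehydrogenase genes were called lower. Ldhb, the heart type subunit, was at 5.16 and 4.68 (CPEB3 IgG) against 7.33 and 7.43 (control IgG), 5.51-fold lower with CPEB3 IgG (95% interval 3.66 to 8.30). Ldha, the muscle type subunit, was at 5.68 and 5.44 (CPEB3 IgG) against 6.80 and 6.78 (control IgG), a difference of -1.23 ± 0.17. The groups of both genes did not overlap, and the SD between the CPEB3 IgG replicates of Ldhb was 0.34.

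Of the 5 members at the entry of pyruvate into the cycle 4 were called lower, with a median difference of -1.04 over the 5. Pdha1 and Pdhb, the subunits of the first enzyme of pyruvate dehydrogenase, differed by -1.04 ± 0.17 and -0.83 ± 0.15. Dld, the dihydrolipoyl dehydrogenase shared by several complexes, differed by -1.18 ± 0.20, and Pcx, pyruvate carboxylase, which makes oxaloacetate, by -1.13 ± 0.14. Dlat, the second enzyme of the complex, was at 2.61 and 2.50 (CPEB3 IgG) against 2.85 and 2.96 (control IgG) and was not called (-0.35 ± 0.15; limma adjusted p = 0.142). Groups of all 5 did not overlap, which held in the same direction for 41.3% of all entries. Pdha1 and Dld lost their call without either CPEB3 IgG array, Pcx without CPEB3 IgG replicate 1, and Pdhb without any 1 of the 4 arrays. Pdha1, Pcx and Pdhb also lost theirs with no scaling, and Pdhb with median scaling. Pdhb was called through its brightest probe only: its 2 other probes were not called, at -0.64 ± 0.21 and -0.49 ± 0.38 (limma adjusted p = 0.0763 and 0.366 over probes). Nor was the gene called with the mean of its probes (-0.65) or with the probe of the largest start position (-0.49). That start is counted on another transcript, and by its coordinates (chr14:9003605-9003664, minus strand) the probe lies 5′ of the other 2. It was also dim, with a mean level of -3.91 (CPEB3 IgG) and -3.43 (control IgG).

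**Figure D3:**
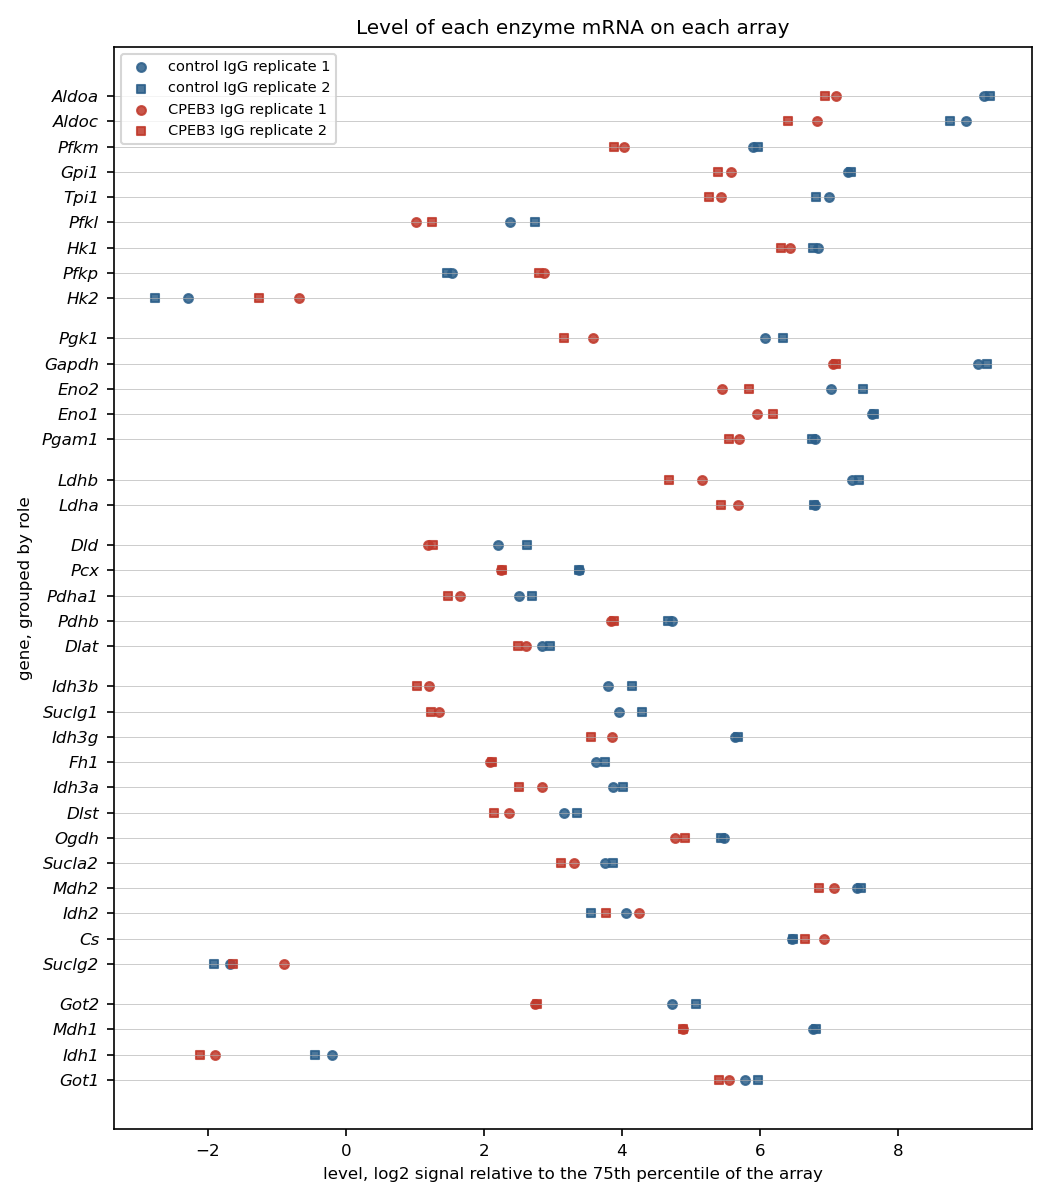
Level of each of the 37 enzymes on each of the 4 arrays (x axis, log2 signal relative to the 75th percentile of the array; brightest probe of each gene), grouped by role on the y axis in the order of the plot of differences. Red marks stand left of blue marks in 32 genes and right of them in 4 (Hk2, Pfkp, Cs and Suclg2), and in Idh2 they overlap.

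Within the citrate cycle, 8 of 12 members were called lower and 0 higher, and subunits of the same complex differed in size. Idh3b and Idh3g, subunits of the NAD-dependent isocitrate dehydrogenase, and Idh3a, its catalytic subunit, were all lower. Idh3b was at 1.21 and 1.03 (CPEB3 IgG) against 3.80 and 4.14 (control IgG), 7.22-fold lower with CPEB3 IgG (95% interval 5.02 to 10.4; limma adjusted p = 0.00386). Idh3g differed by -1.95 ± 0.18 and Idh3a by -1.27 ± 0.19. The 3 were read by 1 probe each, at position 802 (Idh3b), 1215 (Idh3g) and 1302 (Idh3a), and probe position and subunit cannot be told apart. Idh3a alone of the 3 lost its call without an array, CPEB3 IgG replicate 2.

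Succinyl-CoA synthetase, which makes GTP or ATP, pairs the shared subunit Suclg1 with Suclg2 or Sucla2. Suclg1 was at 1.35 and 1.24 (CPEB3 IgG) against 3.95 and 4.29 (control IgG), 7.09-fold lower with CPEB3 IgG. Sucla2, the ATP-forming partner, differed by only -0.60 ± 0.16, and Suclg2, the GTP-forming partner, was at -0.89 and -1.63 (CPEB3 IgG) against -1.67 and -1.91 (control IgG) and not called (0.53 ± 0.30; limma adjusted p = 0.230). The 95% interval of Suclg2 ran from -0.28 to 1.34 and does not meet that of Suclg1, -3.33 to -2.32. Each subunit was read by 1 probe, at position 904 (Suclg1), 1469 (Sucla2) and 1635 (Suclg2) of its transcript. Differences also varied along transcripts, as described below, so probe position and subunit cannot be told apart. The difference between subunits was not tested.

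Fh1, fumarase, was at 2.09 and 2.12 (CPEB3 IgG) against 3.63 and 3.75 (control IgG), a difference of -1.59 ± 0.15, and its second probe differed by -2.07 ± 0.16. Ogdh and Dlst, the first and second enzymes of the oxoglutarate dehydrogenase complex, differed by -0.61 ± 0.15 and -1.01 ± 0.17. Both were called with all arrays, but Ogdh, like Sucla2, lost its call without any 1 of the 4 arrays and turned to 0.10 with spike-in scaling (Sucla2 to 0.12), which raised all entries alike; relative to the median of all entries they stood at -0.47 and -0.46. Dlst lost its call without either CPEB3 IgG array and without control IgG replicate 2. Cs, citrate synthase, which opens the cycle, was at 6.93 and 6.65 (CPEB3 IgG) against 6.47 and 6.48 (control IgG) and not called (0.31 ± 0.17; limma adjusted p = 0.219). Idh2, the NADP-dependent mitochondrial isocitrate dehydrogenase, was at 4.25 and 3.77 (CPEB3 IgG) against 4.05 and 3.56 (control IgG), with overlapping groups, and Mdh2, mitochondrial malate dehydrogenase, differed by -0.48 ± 0.16 (limma adjusted p = 0.0817). Mdh2 and Cs were thus both among the 7 members not called, with differences of opposite sign.

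Idh1 and the malate-aspartate shuttle had 3 of 4 members called lower. Mdh1, cytosolic malate dehydrogenase, was at 4.88 and 4.89 (CPEB3 IgG) against 6.76 and 6.82 (control IgG), 3.75-fold lower with CPEB3 IgG. Got2, the mitochondrial aspartate aminotransferase, was at 2.74 and 2.77 (CPEB3 IgG) against 4.73 and 5.07 (control IgG), 4.42-fold lower. Its cytosolic counterpart Got1 was at 5.56 and 5.41 (CPEB3 IgG) against 5.78 and 5.98 (control IgG) and not called (-0.40 ± 0.17; limma adjusted p = 0.131). The cytosolic enzyme was thus called and the mitochondrial one not for malate dehydrogenase, and the reverse held for the aminotransferase; the difference between isoforms was not tested. Idh1, cytosolic isocitrate dehydrogenase, which makes NADPH, differed by -1.68 ± 0.18.

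Leaving out each array in turn left 19 to 25 members called lower, while the share of all entries called lower fell to between 7.30% and 16.1%. Of the 28 members called lower, 17 were still called without any 1 array and 11 were not. The 11 are Pfkl, Eno2, Pgam1, Pdha1, Pdhb, Dld, Pcx, Idh3a, Dlst, Ogdh and Sucla2.

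Members with several probes showed differences that varied along the transcript. At the level of probes, 44 of 58 were called lower, 2 higher and 12 not called, against 18.9% lower and 15.8% higher over the 40616 probes kept. In Pfkp the probe at position 2138 was called lower, at 0.64 and 0.43 (CPEB3 IgG) against 2.801 and 2.97 (control IgG), a difference of -2.35 ± 0.18 (limma adjusted p = 0.00527 over probes). The probe at 3922, whose levels are given above, was called higher at 1.33 ± 0.16. The gene entry of Pfkp therefore depends on the probe that stands for it. In Hk1 the probe at 2983 was called lower, at -0.60 and -0.07 (CPEB3 IgG) against 1.12 and 1.69 (control IgG), a difference of -1.74 ± 0.30 (limma adjusted p = 0.0180 over probes), and the probe at 3844 was not called (-0.21 ± 0.15).

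Ldha and Tpi1 were lower at each probe, by differing amounts. The Ldha probes at 351, 970 and 1755 differed by -2.61 ± 0.16, -3.41 ± 0.23 and -1.23 ± 0.17. For Tpi1 the probes at 634 and 1204 differed by -3.26 ± 0.19 and -1.56 ± 0.18. The 7 Gapdh probes were all called lower, by -3.76 to -1.86, with no steady order along the transcript. Dld differed by -2.55 ± 0.27 at 1411 and -1.18 ± 0.21 at 1721. Ogdh differed by -0.61 ± 0.16 at 4104, -0.87 ± 0.16 at 4176 and -0.10 ± 0.19 at 6503, also without a steady order. In each of the 7 member transcripts with probes at least 300 nt apart, a distance chosen after the data were seen, the probe nearest the 5′ end had a lower difference than the probe nearest the 3′ end, with a median gap of 1.38 on the log2 scale. The same order held in 79.8% of 3149 such transcripts on the whole array, with a median gap of 0.71. The order is thus common on these arrays, and its source was not tested.

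**Figure D4:**
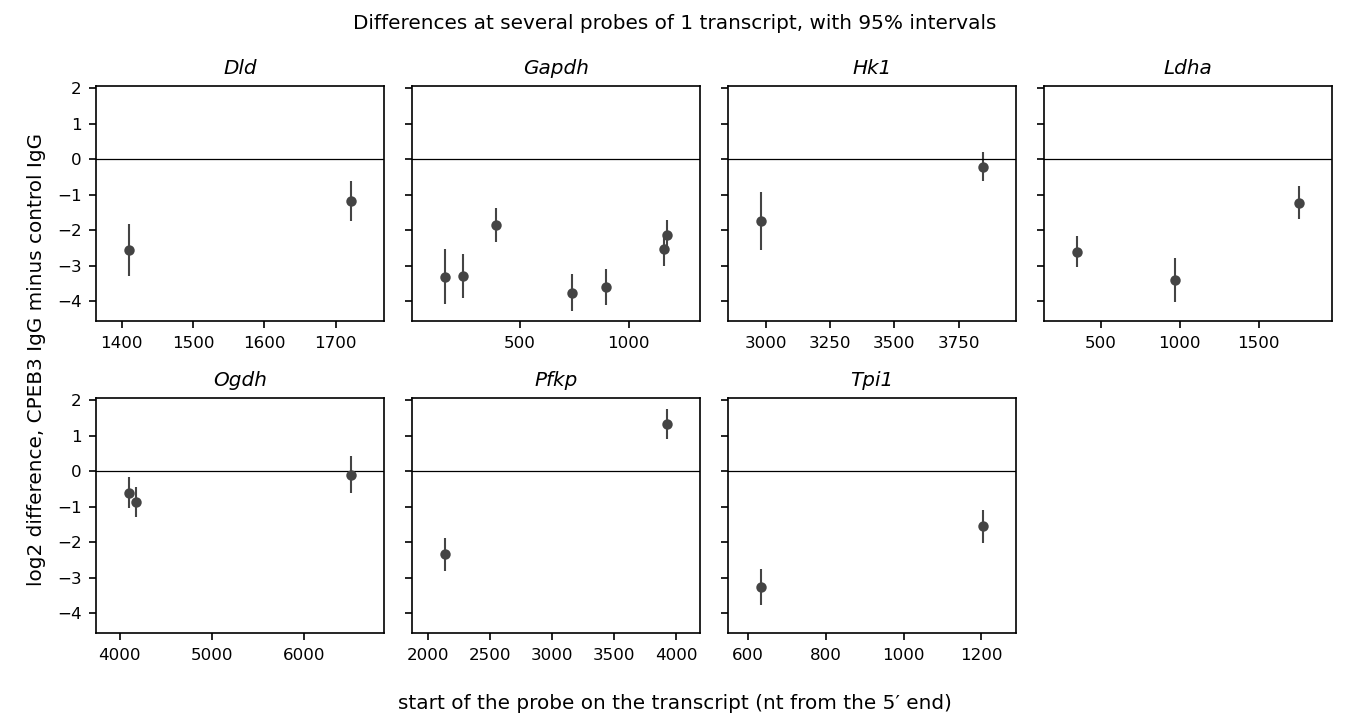
Log2 difference, CPEB3 IgG minus control IgG (y axis, with 95% intervals from limma over probes, 2 arrays a group), against the start of the probe on its transcript in nt (x axis) for the 7 enzymes with probes at least 300 nt apart on 1 transcript. The probe nearest the 3′ end has the less negative or, in Pfkp, the positive difference compared with the probe nearest the 5′ end in all 7, and 2 of the 7 Gapdh probes are placed by the files on other chromosomes.

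Thymine, which stands for uridine, made up a median of 28.3% of the member probes and of 28.3% of the 22103 kept probes with a RefSeq mRNA accession. The hexamer TTTTAT, read on the mRNA strand, was in 0 of the 58 member probes and in 4.38% of that background, and TTTTT was in 1 (the 3′ probe of Pfkp) and in 12%. AATAAA was in 14 member probes, some of which overlap, and in 13.8% of the background. These windows of 60 nt do not cover the rest of the transcripts.

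Other genes of the pathway, from a list chosen with earlier results of these data known were called in both directions in equal number. Of 63 listed 60 were tested, 15 were called higher, 15 lower and 30 not called, with a median difference of -0.08. The share was 25.0% in each direction, near that of all entries (19.2% higher and 20.2% lower). The counts moved with the setting, as did those of all entries. Spike-in scaling gave 16 higher and 3 lower (18.3% and 2.50% of all entries), median scaling 20 and 9 (24.5% and 11.3%), and no scaling 8 and 11 (11.2% and 13.1%). There were 7 and 7 without CPEB3 IgG replicate 1 (2492 and 2020 of all entries), 8 and 9 without CPEB3 IgG replicate 2 (2904 and 2369), and 9 and 11 without control IgG replicate 1 (4009 and 3901). The 3 with the largest positive differences were Slc2a1, the glucose carrier of the blood-brain barrier and glia (2.90 ± 0.25), Rpia, an isomerase of the pentose phosphate pathway (2.68 ± 0.23), and Pfkfb2, which sets the activator of phosphofructokinase (2.67 ± 0.21). The 3 with the largest negative ones were Pgam2, the muscle type mutase (-2.88 ± 0.16), Pgls, a lactonase of the pentose phosphate pathway (-2.43 ± 0.16), and Gpd2, of the glycerol phosphate shuttle (-1.69 ± 0.15). Slc2a1 was at 3.73 and 3.39 (CPEB3 IgG) against 0.92 and 0.41 (control IgG), and Pgam2 at -1.49 and -1.71 (CPEB3 IgG) against 1.26 and 1.29 (control IgG).

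Carriers that bring glucose and lactate across the membrane were a group singled out after its values were seen. In it 5 of 6 were called higher, against 19.2% of all entries. Besides Slc2a1 these were the neuronal glucose carrier Slc2a3, at 4.26 and 4.52 (CPEB3 IgG) against 2.29 and 2.44 (control IgG), Slc2a4 (0.85 ± 0.18), and the monocarboxylate carriers Slc16a1 (1.74 ± 0.26) and Slc16a3 (1.62 ± 0.16). Slc2a4 lost its call without any 1 array, and the other 4 kept theirs. Slc16a7, the neuronal monocarboxylate carrier, went the other way and was not called (-2.67 ± 0.82; limma adjusted p = 0.0637). It was at -0.28 and -0.65 (CPEB3 IgG) against 3.38 and 1.03 (control IgG), so the groups did not overlap but the control IgG replicates lay far apart. Its second probe was at -0.32 and not called. Succinate dehydrogenase, the cycle enzyme built into the respiratory chain, was split: its catalytic subunits Sdha and Sdhb were called lower (-0.999 ± 0.18 and -1.57 ± 0.20) and its membrane anchors Sdhc and Sdhd higher (0.67 ± 0.15 and 1.05 ± 0.16). Only Sdhb of the 4 kept its call without any 1 array.

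Of 28 listed markers of brain cell types 26 were tested, and 1 was called higher (3.85%) and 3 lower (11.5%). Both shares were below those of all entries, 19.2% and 20.2%. Slc1a3, the glutamate carrier of astrocytes, was higher (3.16 ± 0.37), and Aldh1l1, another astrocyte marker, lower (-3.03 ± 0.23), though its second probe was at 0.59 and not called. The summed linear level of the 5 astrocyte markers was 52.04 to 87.02 with CPEB3 IgG and 36.58 to 46.49 with control IgG. Slc1a3 alone made up 40.91 to 73.47 and 5.02 to 7.45 of it, and the other 4 summed to 11.13 to 13.55 with CPEB3 IgG and 31.56 to 39.04 with control IgG, the opposite order. These sums add levels of different probes and are led by the brightest of them. The interneuron markers Pvalb and Sst were lower (-1.74 ± 0.17 and -1.66 ± 0.27), Sst losing its call without CPEB3 IgG replicate 1. Gad1 (-0.16 ± 0.32) and Gad2 (-0.87 ± 0.25) were not called. The 4 interneuron markers summed to 38.41 to 51.41 (CPEB3 IgG) and 85.26 to 90.89 (control IgG). Gad1 alone made up 13.81 to 24.27 and 18.80 to 22.11 of it, and the other 3 summed to 24.60 to 27.14 and 63.14 to 72.10. The 4 excitatory neuron markers besides Snap25, which other neurons also express, had 0 calls and sums of 25.54 to 32.47 and 23.65 to 24.69. Of the 17 probes of these markers that do not stand for their gene, 7 were called lower and 0 higher, against 18.9% and 15.8% of all probes kept. They were at Camk2a (-1.14), Csf1r (-0.67), Gfap (-1.38 and -1.88), Mbp (-1.46 and -1.30) and Pvalb (-1.15). Those at Camk2a, Csf1r and Mbp and the Gfap probe at -1.38 lie 5′ of the probe that stands for the gene, and that at Pvalb lies 3′ of it. No tested marker was at background on any array, and the part of these cell types in the members' values was not tested.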

How the data were processed

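RNA brought down with CPEB3 IgG or control IgG (2 arrays each, grouped by sample title) was read on 1-colour Agilent arrays. The deposited files hold spot intensities made, per the file headers, with Feature Extraction 10.5.1.1, background-subtracted and detrended within the array but not normalised between arrays, on mm9 coordinates. Control spots and outlier flags were left out. Log2 of the processed intensity was taken relative to each array's 75th percentile and averaged per probe. Of 55681 probes, the 40616 that at least 2 of 4 arrays measured well above background were kept. Members kept the name in the files, other probes took RefSeq symbols (GRCm38.p6 table, names only; 27509 matched), and the brightest probe stood for each of 27687 entries. The comparison used limma 3.58.1 (lmFit, eBayes, no block; R 4.3.3), with p-values adjusted by Benjamini-Hochberg over all entries or all probes; the fit was tested on simulated data. The members, lists and tests were chosen with earlier results of these data known. All members are named, and up to 3 genes called in each direction from other lists; further genes were chosen after their values were seen, and some listed genes are not reported here. The planned rule for printed sequences, probes in the coding part by RefSeq protein, could not be applied, since no protein table was used here. Alternatives were other background corrections, scalings, filters, probe choices, names, variance priors, thresholds, a replicate block and leaving out each array.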

Additional observations from a re-analysis of the deposited data

How the results depend on the processing

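With spike-in scaling 6 member genes and 17 member probes were called lower, in place of 28 and 44; Ogdh turned to 0.10 and Sucla2 to 0.12. The cause was not tested. With the mean of the probes of a gene 1 member was called higher, Pfkp turned to -0.51, and with the probe of the largest start position Aldh1l1 turned to 0.59. That setting was meant to take the probe nearest the 3′ end, but it compared starts across different transcripts of a gene. At an adjusted p of 0.01, 1 member gene and 1 member probe were called higher. Leaving out each array in turn gave 19 to 25 genes lower and 1 to 2 higher, and 31 to 41 probes lower and 0 to 2 higher. The 0 probes called higher came without CPEB3 IgG replicate 1. In the other settings 19 to 30 member genes were called lower. Of all calls, 48.7% were higher in the main setting, 68.4% with median scaling and 88.0% with spike-in scaling.

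With the replicate number as a block, 27 member genes and 43 probes were called lower, and 2 genes and 2 probes higher. Sucla2 lost its call with the block (limma adjusted p = 0.0534). The deviations of same-numbered arrays correlated at 0.39, but 2 pairs are too few to tell whether the numbers pair the arrays. The files show 1 slide and 1 scan for the 4 arrays, which leaves no block of that kind to fit. The number of arrays limits precision.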
